A study of Mus musculus with 4 samples.

Results

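Mature B-cell and plasma cell genes were followed in RNA from LT-HSCs of mice, the long-term haematopoietic stem cells at the root of blood formation. The set holds 9 of the 51912 Ensembl genes in each file, taken by gene symbol. They are the pan-B surface genes Ms4a1 and Cd22, the mature B-cell genes Fcer2a, Cr2, Bank1, Blk and Spib, and the plasma cell genes Jchain and Mzb1. The libraries were Fam122a KO 1 and 2 and WT 1 and 2, each made from sorted cells mixed from 3 C57BL/6 animals aged 8 to 12 weeks. The sort kept LSK cells (lineage-negative, Sca1-positive, Kit-positive) that lacked CD34 and Flk2, in KO and WT alike. How the Fam122a allele was deleted, and in which cells of the animals, is not given in the sources used here. FAM122A inhibits the phosphatase PP2A, and the series asked which genes it regulates in these stem cells.

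B cells pass from precursors, which rearrange their antibody genes, to mature cells that carry a finished receptor, and a few end as antibody-secreting plasma cells. CD20 and CD22 sit on B cells from the late precursor stages to maturity. The receptors CD21 and CD23 mark mature cells, and the joining chain and MZB1 serve antibody assembly in secreting cells. Stem cells of the marrow are not known to use most of these genes, and the lineage gate is meant to remove cells that carry B-cell antigens. Spib and Mzb1 are also used by plasmacytoid dendritic cells, so levels of that cell type's markers are given with them.

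The deposited values were read as FPKM, which adjusts the number of fragments for the length of the gene and the depth of the library, with sums of 831933 and 816028 in KO and 1048395 and 1289940 in WT. Steps between low values implied about 6840000 and 5960000 fragments in KO 1 and 2, and 4280000 and 2480000 in WT 1 and 2. WT 2 stood apart from the rest. The median of 80 cytosolic ribosomal protein genes was 376 and 317 FPKM in KO, against 476 in WT 1 and 13.0 in WT 2. The share of all FPKM at unannotated MSTRG loci was 1.74% and 1.81% in KO, against 9.14% in WT 1 and 53.9% in WT 2. KO 1 and 2 were therefore compared first with WT 1 alone, which is assumed to vary like the KO pair, and then with both WT libraries. Fam122a itself was listed at 0 in both KO libraries, against 18.4 and 7.46 FPKM in WT 1 and 2. The LT-HSC marker Ly6a (Sca1) was at 230 and 205 FPKM in KO, against 201 in WT 1 and 0 in WT 2. Kit was at 93.5 and 129 FPKM in KO, against 81.7 in WT 1 and 2.26 in WT 2. The sort marker Cd34, which the gate excludes as a protein, was nonetheless at 87.7 and 62.1 FPKM in KO, against 179 in WT 1 and 18.2 in WT 2. Of 11 LT-HSC genes tested against WT 1, 5 lay above 0 and 0 were called, beside 47.0% and 13.7% of all genes.

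Promoter windows from RefSeq's GRCm38.p6 table were examined for 6 of the 9 genes, which need not be all that the table holds. Shown here are the 250 bases before a RefSeq start of Cd22, whose fitted difference was near 0, and of Cr2 and Bank1, lower in KO than in WT 1. Those before the start of Spib, which was higher, are shown as well. The start used for Cd22 lies inside its gene model, which runs from 30865402 to 30880342, so that window does not precede the whole gene. All are on the minus strand and are written 5′ to 3′ along the gene, at chr7:30879029-30879278 (Cd22), chr1:195176720-195176969 (Cr2), chr3:136326067-136326316 (Bank1) and chr7:44532072-44532321 (Spib). Capitals mark matches to an E-box (CAGNTG, either strand) or to the EBF1 motif (TCCC, 2 bases of any kind, then GGGA).
Cd22: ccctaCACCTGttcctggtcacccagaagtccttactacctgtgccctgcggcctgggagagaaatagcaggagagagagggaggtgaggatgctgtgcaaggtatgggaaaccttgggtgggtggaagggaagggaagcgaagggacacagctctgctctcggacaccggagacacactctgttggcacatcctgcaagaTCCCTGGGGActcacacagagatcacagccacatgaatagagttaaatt
Cr2: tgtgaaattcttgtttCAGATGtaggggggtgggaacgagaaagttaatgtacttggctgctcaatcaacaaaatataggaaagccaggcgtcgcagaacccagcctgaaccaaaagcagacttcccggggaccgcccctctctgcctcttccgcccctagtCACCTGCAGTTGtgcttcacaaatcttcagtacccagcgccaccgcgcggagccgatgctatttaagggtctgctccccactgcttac
Bank1: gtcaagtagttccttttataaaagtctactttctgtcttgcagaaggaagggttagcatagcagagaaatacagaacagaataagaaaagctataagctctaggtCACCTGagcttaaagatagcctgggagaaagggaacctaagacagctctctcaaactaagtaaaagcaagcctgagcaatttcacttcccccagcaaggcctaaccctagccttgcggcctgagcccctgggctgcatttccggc
Spib: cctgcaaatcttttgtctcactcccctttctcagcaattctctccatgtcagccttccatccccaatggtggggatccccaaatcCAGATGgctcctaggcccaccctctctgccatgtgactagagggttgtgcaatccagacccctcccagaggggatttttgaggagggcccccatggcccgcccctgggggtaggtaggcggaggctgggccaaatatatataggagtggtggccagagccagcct
Cd22 was the only one of these 4 windows with an EBF1 match (TCCCTGGGGA, first base 49 before that inner start). The motif was found in 0.8% of all 32851 windows of this length. Each of the 4 windows held at least 1 E-box, as did 44.8% of all windows. In the window of Cr2 a pair of E-boxes lies next to each other, with the first base of the nearer one 82 before the start. The octamer ATGCAAAT and the PU.1 and SPIB core GAGGAA, present in 1.6% and 23.3% of all windows, were searched on both strands and matched none of these windows. A match is a description of letters only, and nothing follows from a missing one.

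Between Fam122a KO and WT 1, the 9 genes went both ways, and Cr2 alone passed the gene test. Genes were tested with limma on log2(FPKM + 1), with p-values adjusted over all genes and called under 0.05. Of the 8 genes of the set with enough signal to be tested, 0 rose and 1 fell, beside 0.814% of 16580 genes called higher and 12.9% called lower. The count in the set is thus near the share over all genes tested. Cr2 passed the filter of 1 FPKM on the mean of the group means only through WT 1, the group in which it was higher. It was not tested where 1 FPKM was asked for in 2 libraries. In all 9 genes, both KO libraries lay above WT 1 in 3 and below it in 5, beside 40.1% and 46.2% of all genes tested. Against both WT libraries they lay above in 3 and below in 4, beside 27.1% and 37.6%. The fitted difference was above 0 in 4 of the 8 tested genes, beside 47.0% of all genes, and in 5 of 8 with both WT libraries, beside 46.7%. The median log2 difference of the 8 was -0.46 against WT 1, beside -0.06 over all genes tested. With both WT libraries in the fit, limma called 0 of 20433 genes and 0 of the 8, with 0.577% of genes higher and 11.6% lower at an unadjusted p under 0.05. At that unadjusted level, 1 of the 8 stood out, Bank1. In bulk RNA, fewer cells of a type and less RNA per cell cannot be told apart.

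**Figure D1:**
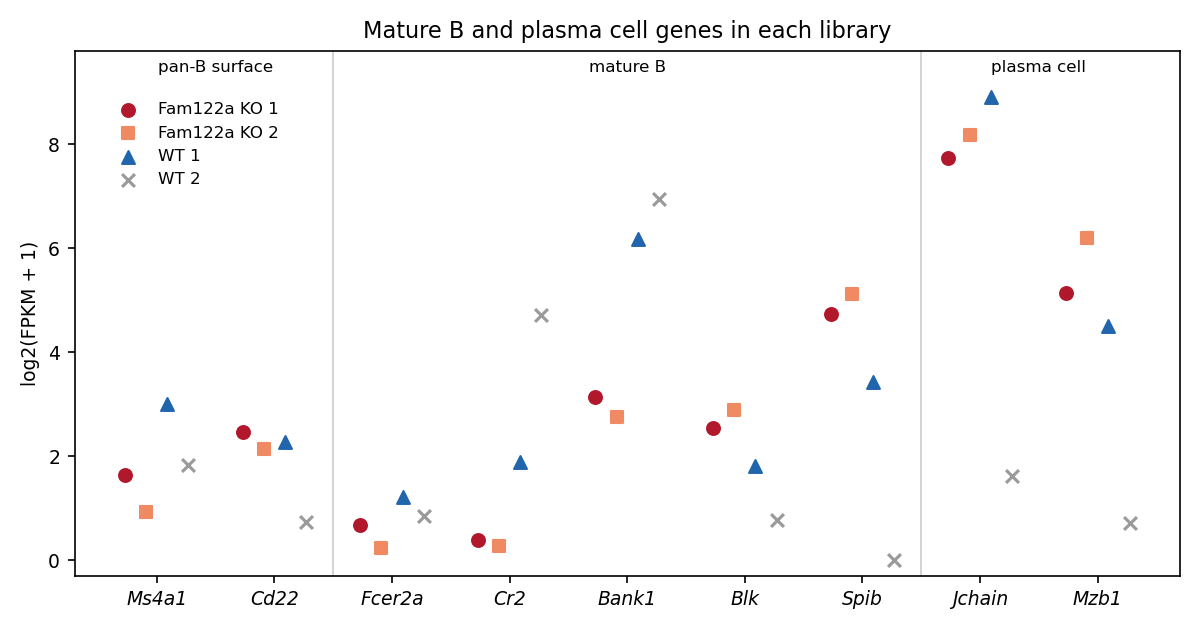
Level of each of the 9 genes, as log2(FPKM + 1), in Fam122a KO 1, Fam122a KO 2, WT 1 and WT 2, with 1 point per library and no averaging. Jchain is near the top in KO 1, KO 2 and WT 1 (213, 289 and 482 FPKM) and low in WT 2 (2.06), while Cr2 and Bank1 are highest in WT 2.

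Of the pan-B surface genes, Ms4a1 was lower in KO and the KO values of Cd22 lay on both sides of WT 1, and neither passed. Ms4a1, which encodes CD20 (ENSMUSG00000024673, GRCm38 chromosome 19, 11249675 to 11266241, minus strand), was at 2.12 and 0.89 FPKM in KO, against 7.06 in WT 1 and 2.57 in WT 2. Both KO libraries were below both WT libraries. The KO mean of 1.51 ± 0.87 FPKM (SD, n = 2) was 0.213 of the WT 1 value (log2 difference -1.73, SE 0.47, limma adjusted p = 0.171). Cd22, an inhibitory receptor of B cells (ENSMUSG00000030577, chromosome 7, 30865402 to 30880342, minus strand), was at 4.55 and 3.38 FPKM in KO, against 3.82 in WT 1 and 0.67 in WT 2. WT 1 thus lay between the KO libraries. The log2 difference was 0.03 with a 95% interval of -1.18 to 1.25, so a change of about 1 on that scale in either direction lies within it. Cd22 shares 479 exonic bases with the antisense gene Gm29439, listed at 0 in both KO libraries and at 2.64 and 4.04 FPKM in WT 1 and 2. The library kit does not mark strand, so reads of the pair cannot be told apart there.

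Of the mature B-cell genes, Cr2 and Bank1 were lower in KO than in WT 1 by a like ratio, while Spib and Blk were higher. Only Cr2 was called, and it had passed the filter only through WT 1. Cr2, the complement receptor CD21 (ENSMUSG00000026616, chromosome 1, 195136811 to 195176716, minus strand), was at 0.30 and 0.21 FPKM in KO, against 2.72 in WT 1 and 25.3 in WT 2. Both KO libraries were far below both WT libraries, and WT 2 was highest. The KO mean was 0.0938 of WT 1 (log2 difference -1.57, SE 0.069, limma adjusted p = 0.0264). These values stand for roughly 16.1 and 9.84 fragments in KO and 91.5 in WT 1. The call was lost with a pseudocount of 0.1 FPKM (adjusted p = 0.0788), without the intensity trend (0.0513) and after quantile normalization (log2 difference -0.31, adjusted p = 0.144). It was also lost with both WT libraries (-2.98, SE 1.22, adjusted p = 0.412).

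Bank1, a scaffold protein of B-cell receptor signalling (ENSMUSG00000037922, chromosome 3, 136053363 to 136326066, minus strand), was at 7.78 and 5.73 FPKM in KO, against 71.0 in WT 1 and 122 in WT 2. The KO libraries lay close together and far below both WT libraries. The KO mean of 6.76 ± 1.45 FPKM (SD, n = 2) was 0.0952 of WT 1. The log2 difference was -3.23 (SE 0.27, unadjusted p = 0.00855, limma adjusted p = 0.0570), and the adjusted p ran from 0.0455 to 0.0864 over 10 alternatives with a test. With both WT libraries it was -3.61 (SE 1.02, adjusted p = 0.317). In WT 1 the value of Bank1 was 108% of the mean of the B-cell receptor subunits Cd79a and Cd79b, against 3.75% and 1.91% in KO. It was thus the one mature B-cell gene of the set whose level in WT 1 matched that of the receptor itself.

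Cr2 and Bank1 were the only 2 of the 9 genes with more signal in WT 2 than in WT 1. WT 2 exceeded WT 1 in 77.7% of the 2132 genes called lower in KO, beside 39.8% of all genes tested and 17.8% of the 135 called higher. Scaled by the summed MSTRG loci (factor 0.138), the WT 2 signal would amount to 3.48 FPKM for Cr2 and 16.8 FPKM for Bank1 in WT 1, which is more than the measured 2.72 for Cr2 and less than the 71.0 for Bank1. After subtraction of that profile Cr2 was at 0 in WT 1 and no longer tested, and Bank1 kept a log2 difference of -2.93 (adjusted p = 0.0782). Bank1 spans 36.4 times its exonic length. Coding genes with a ratio above 16, 3265 in all, had medians of 0.92 and 1.02 FPKM in KO, against 7.22 in WT 1 and 27.6 in WT 2. Cr2 has a ratio of 4.92. Blk, with a ratio of 16.4, was low in WT 2. The predicted gene Gm31243, which lies inside the span of Bank1 without sharing exonic bases, was at 0.19 and 22.6 FPKM in KO, against 8.97 in WT 1 and 135 in WT 2. The part of this signal in the lower values of Cr2 and Bank1 in KO was not tested beyond the subtraction.

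Spib, an ETS-family transcription factor of the B and plasmacytoid dendritic lineages (ENSMUSG00000008193, chromosome 7, 44525993 to 44532071, minus strand), was at 25.6 and 33.6 FPKM in KO, against 9.75 in WT 1 and 0 in WT 2. Each KO library exceeded both WT libraries. The KO mean of 29.6 ± 5.68 FPKM (SD, n = 2) was 3.03 times WT 1 (log2 difference 1.50, SE 0.26, unadjusted p = 0.0328, limma adjusted p = 0.115). In WT 2, 3 fragments would have given 0.455 FPKM. Blk, a Src-family kinase already present in precursor B cells (ENSMUSG00000014453, chromosome 14, 63372836 to 63417037, minus strand), was at 4.80 and 6.41 FPKM in KO, against 2.52 in WT 1 and 0.71 in WT 2. KO again lay above both WT libraries, and the difference did not pass (0.90, SE 0.28, adjusted p = 0.196). Fcer2a, the low-affinity IgE receptor CD23 (ENSMUSG00000005540, chromosome 8, 3681737 to 3694175, minus strand), was at 0.59 and 0.17 FPKM in KO, against 1.33 in WT 1 and 0.79 in WT 2. It was the 1 gene of the set that did not reach the filter, and it had roughly 11.4 and 2.88 fragments in KO and 16.2 in WT 1.

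**Figure D2:**
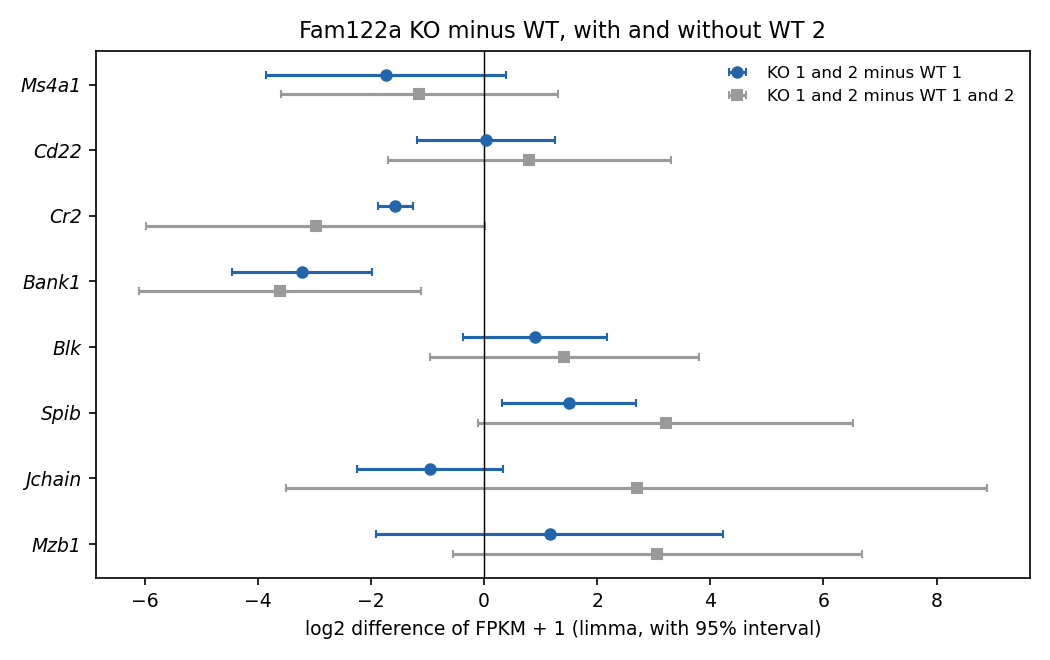
Fitted log2 difference of FPKM + 1, Fam122a KO minus WT, with its 95% interval, for the 8 genes tested. Blue circles set KO 1 and 2 against WT 1 and grey squares against WT 1 and 2. The interval of Cr2 is short against WT 1 (-1.88 to -1.25), but the lone WT library adds no spread to it. It rests on KO values near 0 (0.30 and 0.21 FPKM), and the difference ran from -3.00 to -0.31 over the alternatives. Jchain lies below 0 without WT 2 (-0.95) and above 0 with it (2.70).

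Of the plasma cell genes, Jchain was the most abundant of the set in KO 1, KO 2 and WT 1, and Mzb1 was second to it in both KO libraries. Against WT 1, Jchain was lower and Mzb1 higher in KO, and neither passed. Jchain, the joining chain of secreted IgM and IgA (ENSMUSG00000067149, chromosome 5, 88519809 to 88527891, minus strand), was at 213 and 289 FPKM in KO, against 482 in WT 1 and 2.06 in WT 2. Among coding genes it ranked at or above 97.8% and 98.7% in KO, 99.2% in WT 1 and 52.1% in WT 2. The KO mean of 251 ± 53.7 FPKM (SD, n = 2) was 0.521 of WT 1 (log2 difference -0.95, SE 0.28, limma adjusted p = 0.187). Its direction turned once WT 2, with its 2.06 FPKM, entered the fit (2.70, SE 2.53, adjusted p = 0.480). Mzb1, a chaperone of the endoplasmic reticulum that helps antibody secretion (ENSMUSG00000024353, chromosome 18, 35647267 to 35649367, minus strand), was at 34.0 and 72.5 FPKM in KO, against 21.7 in WT 1 and 0.63 in WT 2. Both KO libraries were above both WT libraries, but they differed from each other by more than KO 1 did from WT 1. The difference did not pass (1.16, SE 0.68, adjusted p = 0.354). Mzb1 shares 695 exonic bases with the gene annotated as SPATA24 on the same strand, so the split of reads there is uncertain. Mzb1 stood at 16.0% and 25.1% of the Jchain level in KO and at 4.51% in WT 1.

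The pan-B and mature genes were also set beside the B-cell receptor subunits within each library. The mean of Cd79a and Cd79b, both in the precursor list used here, was itself higher in KO, at 208 and 300 FPKM, against 65.6 in WT 1 and 0.96 in WT 2. A lower ratio in KO therefore need not mean a lower level, and Spib and Blk had higher levels and lower ratios. Relative to that mean, Ms4a1 was at 1.02% and 0.297% in KO and at 10.8% in WT 1. Cd22 was at 2.19% and 1.13% in KO and 5.82% in WT 1, while its own level was not called different. Cr2 was at 0.144% and 0.070% in KO and 4.14% in WT 1. Spib differed least on this scale, with 12.3% and 11.2% in KO and 14.9% in WT 1. Blk was at 2.31% and 2.14% in KO and 3.84% in WT 1. Jchain was at 103% and 96.4% in KO and at 734% in WT 1. Against Igkc, the kappa light chain constant gene, Jchain differed less, with 8.53% and 6.55% in KO and 10.1% in WT 1. These ratios of FPKM values are descriptions of single libraries, and WT 2 gives none of use because its receptor mean was near 0.

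Of 14 genes of B-cell precursors, 14 had a fitted difference above 0 against WT 1, beside 47.0% of all genes (median log2 difference 2.79). Only 1 rose, the surrogate light chain gene Vpreb2, and 0 fell, beside 0.814% and 12.9% of all genes. Vpreb2 was at 47.8 and 37.9 FPKM in KO, against 1.25 in WT 1 and 0 in WT 2 (4.27, SE 0.24, limma adjusted p = 0.0358). Vpreb1, its relative, was at 317 and 451 FPKM in KO, against 26.0 in WT 1 and 6.94 in WT 2, and did not pass (adjusted p = 0.0576). Ms4a1 was at 0.669% and 0.197% of the Vpreb1 level in KO and at 27.1% in WT 1. The summed precursor list was 1728 and 2653 FPKM in KO, against 316.5 in WT 1 and 52.4 in WT 2. With both WT libraries, 13 of the 14 lay above 0 and 0 passed, beside 46.7% and 0 of all genes. Whether the lists differ from each other was not tested.

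Of the other mature B-cell genes, 18 were tested against WT 1, with 6 above 0 and 12 below, beside 47.0% of all genes above 0 (median log2 difference -0.23). Cxcr5 was the 1 that fell and 0 rose, beside 12.9% and 0.814% of all genes. Cxcr5, the receptor that leads B cells into follicles, was at 0.25 and 0.43 FPKM in KO, against 11.1 in WT 1 and 44.2 in WT 2 (-3.17, SE 0.14, limma adjusted p = 0.0261). As with Cr2, it passed the filter only through WT 1, and its highest value was in WT 2. Cd180, Btla and Fcrl1, surface proteins of mature B cells, had adjusted p-values of 0.0828, 0.0801 and 0.0832 and did not pass. Btla was at 2.61 and 2.71 FPKM in KO, against 8.70 in WT 1 and 13.6 in WT 2. The summed list was at 464 and 422 FPKM in KO, against 448 in WT 1 and 144 in WT 2. Its largest part in KO and WT 1 was Cd37, at 190 and 181 FPKM in KO and 143 in WT 1. Ly86, the next in WT 1, went the other way, at 49.6 and 23.6 FPKM in KO and 96.4 in WT 1. The sum thus says little about the other genes of the list. Of 12 genes of B-cell receptor signalling, many of which myeloid cells also use, 9 lay above 0 and 2 rose, beside 47.0% and 0.814% of all genes. They were the kinase Syk at 68.0 and 68.7 FPKM in KO, against 37.3 in WT 1 and 0.67 in WT 2 (0.86, SE 0.064, adjusted p = 0.0495), and the exchange factor Vav1 at 139 and 138 FPKM in KO, against 80.8 in WT 1 and 8.88 in WT 2 (0.77, SE 0.057, adjusted p = 0.0493).

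Germinal centre genes were low in KO and in WT 1, and 0 of the 4 tested passed, beside 13.7% of all genes. Bcl6, a transcription factor of germinal centre B cells that other blood cells also use, was at 5.56 and 5.81 FPKM in KO, against 6.24 in WT 1 and 3.71 in WT 2. Rgs13 was at 0 and 0.22 FPKM in KO, against 4.11 in WT 1 and 46.5 in WT 2, and did not pass (adjusted p = 0.0556).

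Of the further plasma cell genes, 15 were tested, with 10 above 0 and 5 below, beside 47.0% of all genes above 0 (median log2 difference 0.19). Prdm1, the transcription factor BLIMP1 that drives plasma cell fate, was the 1 that fell and 0 rose, beside 12.9% and 0.814% of all genes. It was at 0.96 and 0.87 FPKM in KO, against 22.7 in WT 1 and 35.2 in WT 2 (-3.63, SE 0.15, limma adjusted p = 0.0244). It too passed the filter only through WT 1, and again WT 2 was the highest library. Sdc1, the plasma cell surface protein CD138, was at 3.88 and 6.42 FPKM in KO, against 3.37 in WT 1 and 1.22 in WT 2. Xbp1, which expands the secretory apparatus in plasma cells and in other cells, was at 135 and 133 FPKM in KO, against 108 in WT 1 and 0.78 in WT 2. Sec11c, Eaf2 and Edem2 did not pass (adjusted p = 0.0878, 0.0557 and 0.116).

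Antibody constant genes were abundant in both KO libraries and in WT 1, and they went both ways. Igkc, the most abundant, was at 2498 and 4413 FPKM in KO, against 4768 in WT 1 and 1.55 in WT 2 (log2 difference -0.52 against WT 1). Ighm, the IgM heavy chain gene, was at 564 and 679 FPKM in KO, against 837 in WT 1 and 1.07 in WT 2 (-0.43). Igha, the IgA heavy chain gene, was at 905 and 940 FPKM in KO, against 738 in WT 1 and 1.29 in WT 2. The class-switched Ighg2c was at 345 and 646 FPKM in KO, against 80.7 in WT 1 and 1.33 in WT 2, and Ighg2b was at 335 and 740 FPKM in KO, against 117 in WT 1 and 0.89 in WT 2. Neither passed (adjusted p = 0.145 and 0.217). Ighd, used by mature naive B cells, was at 2.92 and 5.93 FPKM in KO, against 4.95 in WT 1 and 1.0 in WT 2. Of 10 constant genes tested, 5 lay above 0 and 5 below, beside 47.0% of all genes above 0. Only Iglc3 was called, beside 12.9% of all genes called lower, and it passed the filter only through WT 1. It was listed at 0 in both KO libraries and in WT 2 and at 32.1 FPKM in WT 1. Iglc3 and Iglc2 are near-identical copies, which makes the split of reads between them uncertain. Iglc2 was at 300.5 and 131 FPKM in KO and 248 in WT 1.

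**Figure D3:**
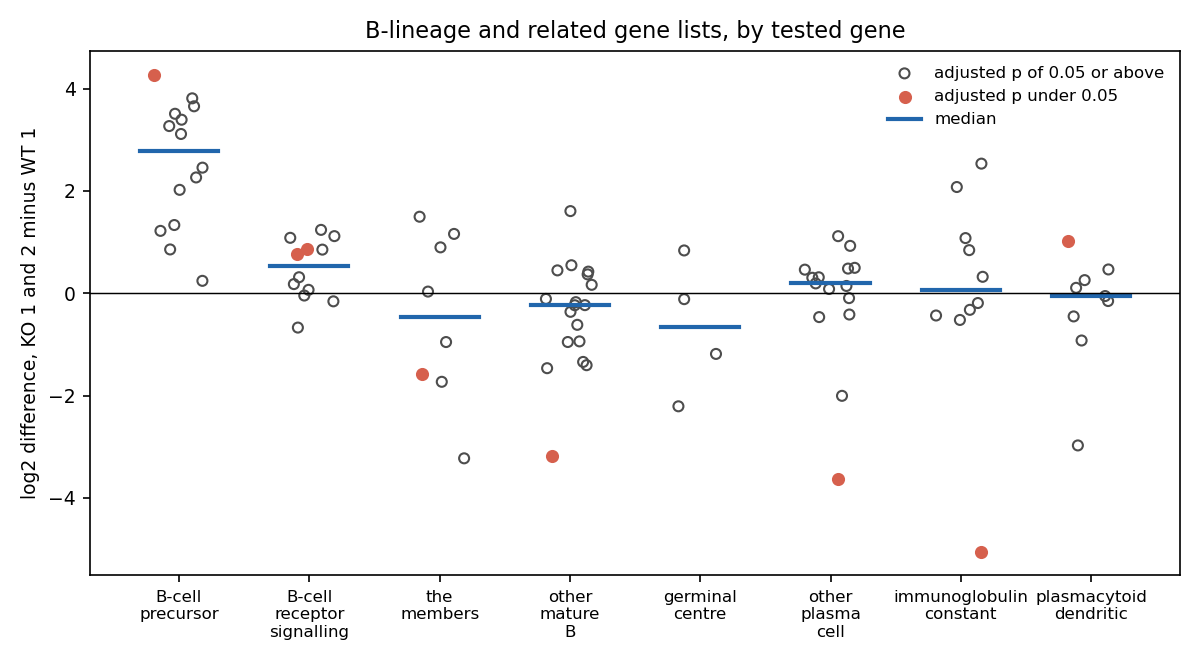
Log2 difference of FPKM + 1, Fam122a KO 1 and 2 minus WT 1, for each tested gene of the lists (points, filled where the adjusted p was under 0.05), with the median of each list as a bar. The B-cell precursor genes all lie above 0 (median 2.79), while the 8 tested genes of the mature and plasma set spread to both sides (median -0.46).

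Markers of other cells that could carry part of these transcripts were present too. Of the 10 plasmacytoid dendritic markers, 9 were tested, 4 lay above 0 and Irf8 rose (92.6 and 92.2 FPKM in KO, against 45.2 in WT 1 and 7.53 in WT 2, limma adjusted p = 0.0373). Over all genes tested against WT 1, 47.0% lay above 0, 0.814% were called higher and 12.9% lower. Siglech, a surface receptor that marks plasmacytoid dendritic cells in mice, was at 12.8 FPKM in each KO library, against 17.9 in WT 1 and 2.52 in WT 2. Ccr9 was at 2.19 and 3.49 FPKM in KO, against 28.8 in WT 1 and 9.44 in WT 2 (adjusted p = 0.0823). The summed list ranged from 372 to 426 FPKM in KO, against 366 in WT 1 and 218 in WT 2, and none of its genes was at 0 in KO or WT 1. Irf8 is also a gene of monocyte and B-cell precursors. The part of plasmacytoid dendritic cells in the Spib and Mzb1 levels was not tested. The 10 neutrophil markers summed to 73790 and 64040 FPKM in KO, against 171100 in WT 1 and 350.3 in WT 2, and all 10 lay below 0 (median log2 difference -0.87). The 10 erythroid markers summed to 59770 and 79550 FPKM in KO, against 51630 in WT 1 and 185 in WT 2, and all 10 lay above 0 (median log2 difference 0.86). The T and NK list summed to 425 and 352 FPKM in KO, against 665 in WT 1 and 31.4 in WT 2. Nkg7 made up most of that sum in KO and WT 1, at 378 and 299 FPKM in KO and 628 in WT 1. Of the 10 genes of that list, 4 lay above 0 and 6 below. With both WT libraries, all 10 neutrophil and all 10 erythroid genes lay above 0, beside 46.7% of all genes. In these 3 lists 0 genes were called, beside 13.7% of all genes tested against WT 1.

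Across the 4 libraries, the gene with the pattern nearest to each of the 9 was found by Euclidean distance of log2(FPKM + 1) among 18147 coding genes. Spib lay nearest to Fcna (distance 0.13 on the log2 scale), which was at 24.4 and 34.6 FPKM in KO, against 10.6 in WT 1 and 0 in WT 2. Mzb1 lay nearest to Tfr2 (0.36) and Jchain to Rps27l (0.51). For Bank1 it was Thada (0.50), at 7.11 and 6.59 FPKM in KO, against 87.5 in WT 1 and 155 in WT 2. Cr2 was closest to Chrdl1 (0.21), Ms4a1 to Socs7 (0.23), Cd22 to Cyp4f17 (0.20), Blk to Jmy (0.27) and Fcer2a to Glrp1 (0.19). With 4 libraries and so many candidates a small distance describes the values only.

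**Figure D4:**
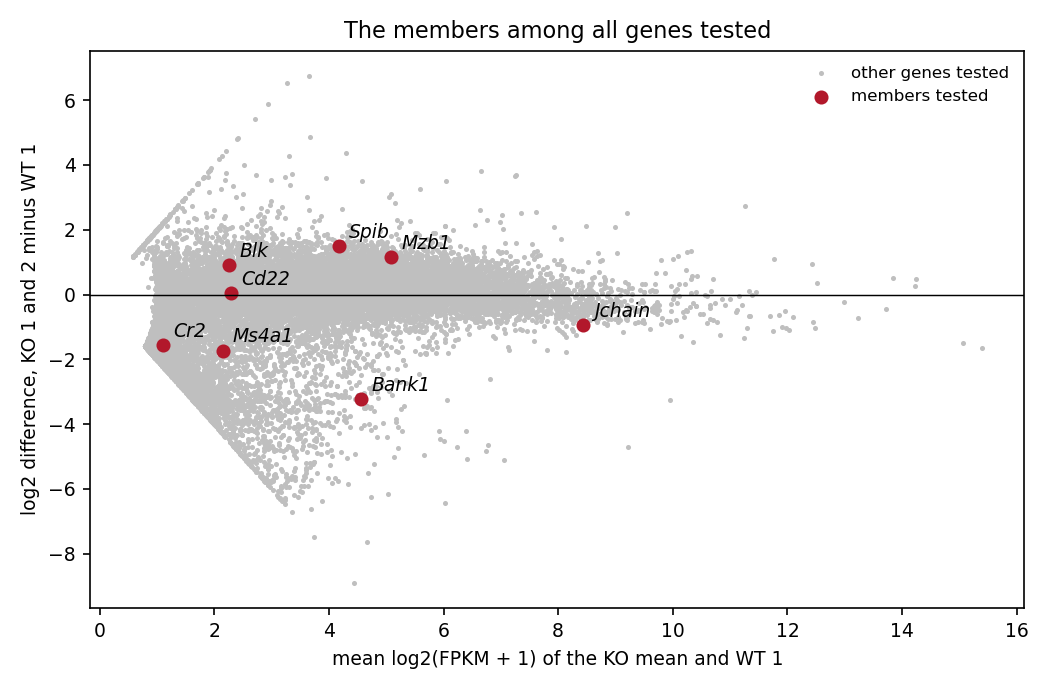
Log2 difference of FPKM + 1 (Fam122a KO 1 and 2 minus WT 1) against mean log2(FPKM + 1) for the 16580 genes tested (grey), with the 8 tested genes of the set in red. Bank1 lies far below the main cloud (-3.23), and Cr2 lies near the edge formed by genes close to 0 FPKM in KO.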

How the data were processed

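RNA was sequenced from 2 Fam122a KO and 2 WT libraries with the SMART-Seq v4 kit, per the labels' protocols. The authors deposited 1 value per feature, taken here as FPKM (scaled by them to gene length and library size), a unit inferred from the numbers because the files carry no header. STAR 2.7.1a, HISAT2 2.1.0 and bcl2fastq appear in the submitters' processing notes, as do GRCm38.p5 and mm10, with no role given for any. Which program computed the FPKM, and on which gene models, is not given in the sources used here.

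Of 87703 features per file, the 51912 Ensembl genes were used. Of these, 51633 had a symbol, and the gene models of GENCODE M21 (GRCm38) covered 51719. Genes whose 2 group means averaged at least 1 FPKM were tested on log2(FPKM + 1) in limma 3.58.1 under R 4.3.3, using its trend option. Adding 1 understates the changes of low genes. P-values were adjusted by Benjamini-Hochberg over all genes tested. The script was tested on simulated data. Each library pools cells of 3 animals, so p-values against WT 1 rest on the spread between the KO pools. With both WT libraries they rest on the spread between WT 1 and WT 2 as well. In both fits they hold library quality too. Depth was estimated from low values of single-exon genes of 1 transcript, as the depth that put them closest to whole fragments. Of the 886 to 2106 genes used per library, 82.8% to 90.8% lay within 0.1 of a whole fragment. The depth was fitted to that closeness, so the share is no check of it. Fragment numbers and floors of 3 fragments are approximate and cover counting error only. The named genes are the 9, up to 4 tested genes with the smallest p from each list and the 1 nearest gene to each. The text leaves out some of them, and other genes were picked after their values were seen. The genes and lists were chosen with earlier results of these data known. Alternatives covered the pseudocount, filter, scaling, trend, replicate block and libraries left out, with the subtraction added after seeing the data.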

Additional observations from a re-analysis of the deposited data

How the results depend on the processing

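Against WT 1, 135 genes were higher and 2132 lower in KO. The counts were 53 and 1160 with a pseudocount of 0.1 FPKM, 761 and 9265 without a filter, 25 and 196 with 1 FPKM in 2 libraries, and 41 and 772 with a 5 FPKM mean. Equal sums gave 220 higher, quantile normalization 536, equal ribosomal protein medians 37 and no trend 76. The subtraction gave 865 lower. The set's count of 1 lower became 0 with a pseudocount of 0.1 FPKM, without the trend and after the subtraction. Bank1 passed, and Cr2 was untested or did not pass, with 1 FPKM in 2 libraries, a 5 FPKM mean and quantile normalization (adjusted p = 0.0455, 0.0480 and 0.0496). The median log2 difference of all genes was 0.16, 0.17 and 0.39 with equal sums, quantiles and ribosomal medians and 0.18 after the subtraction, in place of -0.06. Quantile normalization put 24.0% of calls on the higher side, in place of 6.0%, and the subtraction 18.8%. Cd22 turned to -0.011 after the subtraction and to -0.14 without KO 1. Ms4a1, Cr2, Bank1, Blk, Spib, Jchain and Mzb1 kept their sign against WT 1 in every alternative in which they had a value. The lone-library comparisons without KO 1 or KO 2 had no test.

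With both WT libraries, 0 genes and 0 of the set passed. With equal ribosomal protein medians Cd22 and Blk turned to -0.71 and -0.24. Leaving out each library in turn gave 0 to 7035 genes higher and 0 to 10109 lower, and 0 to 5 of the set higher and 0 to 2 lower, the most without WT 1. Jchain ran from -0.95 (without WT 2) to 6.35 (without WT 1). Across genes, KO 1 minus KO 2 had a correlation of 0.039 with WT 1 minus WT 2. The poor signal of WT 2 enters that value, so it cannot show whether the replicate numbers pair the libraries. The replicate block gave 0 genes higher and 0 lower. The causes of these shifts were not tested. A single usable WT library limits every comparison, and genes under about 1 FPKM rest on few fragments.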
